A study of Homo sapiens with 2 samples.

Results

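The genes described here are 9 human genes of the extrinsic clotting pathway and of plasminogen activation: TFPI, TFPI2, F3, THBD, PLAU, PLAUR, PLAT, SERPINE2 and THBS1. They were chosen by name from an annotation of 57110 gene entries, with earlier results of these data known, and account for 25 of 99493 annotated transcripts. Each of the 9 genes had an entry of its own, not shared with a neighbouring gene. In the authors' annotation (GRCh38) TFPI lies on the minus strand at chr2:187464230-187554492 and SERPINE2 on the minus strand at chr2:223975112-224039319. F3 lies at chr1:94529225-94541800 (minus), TFPI2 at chr7:93885397-93890991 (minus), PLAUR at chr19:43646095-43670547 (minus) and THBD at chr20:23045633-23049741 (minus). PLAU lies at chr10:73911104-73917497 (plus), THBS1 at chr15:39581093-39599466 (plus) and PLAT on the minus strand of chromosome 8. The samples are a pool of human ovarian cancer cells in culture, with equal parts of the established lines COV504, IGROV1 and SK-OV-3 (3 lines), detached with trypsin and with no other treatment or genetic change given. Single cells of the pool were captured on the 10x platform and the cDNA was read both on Illumina and, at full length, on a PromethION nanopore sequencer. The Illumina library was used here only for its 2462 cell barcodes, all of which were also in the PromethION library.

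Clotting outside the blood vessel starts when tissue factor, the product of F3, meets circulating factor VII at a cell surface. TFPI, tissue factor pathway inhibitor, blocks that complex, and thrombomodulin, the product of THBD, turns thrombin toward activating protein C. Fibrin is cleared by plasmin, which the proteases uPA (PLAU) and tPA (PLAT) release from plasminogen. PLAUR encodes the surface receptor that holds uPA at the cell. Serpins such as protease nexin 1 (SERPINE2) block these proteases, and TFPI2, despite its name, mainly inhibits plasmin and trypsin-like proteases in the matrix. Thrombospondin 1 (THBS1) is a secreted matrix protein that binds many of these components. Tumour cells of epithelial origin, ovarian carcinoma cells among them, are known to make tissue factor and uPA.

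Cells were sorted into lines by their counts of 10 genes, and those genes are not results. A barcode with at least 1000 counts was taken as ERBB2-high where ERBB2, NNMT, TSPAN1 and DHRS2 held at least 75% of the counts of the 10 genes, as RARRES2-high where RARRES2 and TMEM100 did, and as FOLR1-high where FOLR1, CLDN3, DEFB1 and CXCL14 did. This gave 648 ERBB2-high cells with a median of 4953 counts, 473 RARRES2-high cells with a median of 6262 and 765 FOLR1-high cells with a median of 5289. A further 243 barcodes with at least 1000 counts fell in no line and 333 barcodes had fewer. Genes outside the rule were used to check the labels. GRB7, MIEN1, STARD3 and PGAP3, neighbours of ERBB2, were highest in the ERBB2-high cells, at 56.4, 528, 214 and 22.9 counts per 1000000 counts (CPM), so these cells are called SK-OV-3-like. CDKN2A, listed as absent from SK-OV-3, had 1 count there, 0 in the RARRES2-high and 88 in the FOLR1-high cells, so it does not set the ERBB2-high cells apart from the RARRES2-high cells. RGCC had 237 counts in the RARRES2-high cells and 0 in both other lines. HSD17B2 had 205 counts in the FOLR1-high cells and 0 in both others. Of the genes listed for IGROV1, FOLR1 and CLDN3 are themselves sorting genes and check nothing. Of the others PAX8 was highest in the FOLR1-high cells, and CDH1 and ESRP1 in the RARRES2-high cells, so neither group was given the name of a cell line. Each line came from 1 library, so there is no replicate spread. All intervals are 95% intervals for counting error only, and a p-value cannot be given.

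Full-length reads separate transcripts that end or splice differently, and the sequences at these points are shown because the transcript results turn on them. They were taken from the GENCODE release 29 transcripts (GRCh38) and run 5′ to 3′ on the minus strand. TFPI ends in alternative ways after a shared exon 6 (lower case, chr2:187484124-187484153). The alpha form goes on to exon 7, whose first 60 bases are at chr2:187467873-187467932, and encodes a secreted protein of 304 codons that keeps the last Kunitz inhibitor domain. The beta form goes on to another exon, whose first 60 bases are at chr2:187478744-187478803, and encodes 251 codons that end in a signal for a lipid (GPI) anchor. Capitals mark the first 60 coding bases after the split:
TFPI alpha: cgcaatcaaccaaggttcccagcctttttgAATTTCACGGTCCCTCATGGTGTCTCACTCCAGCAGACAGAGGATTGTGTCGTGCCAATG
TFPI beta: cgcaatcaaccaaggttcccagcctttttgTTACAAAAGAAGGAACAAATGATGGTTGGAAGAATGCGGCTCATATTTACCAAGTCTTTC

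F3 has 1 transcript with exon 5 and 1 without it. Exon 5 is coding, has 160 bases at chr1:94532321-94532480 and is in capitals in the first sequence below. The second shows the same flanks, the end of exon 4 and the start of exon 6, joined directly. Leaving it out gives the known soluble form of tissue factor, without its membrane span:
F3 with exon 5: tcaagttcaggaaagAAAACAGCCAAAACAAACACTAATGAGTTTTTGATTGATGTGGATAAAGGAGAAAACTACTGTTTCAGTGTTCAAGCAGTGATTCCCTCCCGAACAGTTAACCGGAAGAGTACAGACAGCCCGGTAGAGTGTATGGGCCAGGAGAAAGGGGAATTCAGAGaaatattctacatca
F3 without exon 5: tcaagttcaggaaagaaatattctacatca

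PLAUR also ends in alternative ways after its exon 6 (lower case, chr19:43652225-43652244). The last exon whose first 60 bases are at chr19:43649084-43649143 belongs to the GPI-anchored receptor of 335 codons, and the one whose first 60 bases are at chr19:43646489-43646548 to a form of 281 codons without the anchor. Capitals mark the first 60 coding bases of each:
PLAUR anchored end: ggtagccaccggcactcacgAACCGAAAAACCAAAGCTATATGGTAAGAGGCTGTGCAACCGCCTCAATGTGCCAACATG
PLAUR alternative end: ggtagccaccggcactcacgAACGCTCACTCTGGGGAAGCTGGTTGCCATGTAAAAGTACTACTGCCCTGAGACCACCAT

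SERPINE2 transcripts differ by a few bases at the start of exon 7. ENST00000258405 holds 3 more bases (capitals, chr2:223980398-223980400) than ENST00000409304, and so 398 codons in place of 397:
SERPINE2 longer exon 7: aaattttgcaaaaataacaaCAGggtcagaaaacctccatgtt
SERPINE2 shorter exon 7: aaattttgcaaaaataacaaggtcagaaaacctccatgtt

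The 9 genes did not share 1 pattern over the lines. The choice of the genes used these values, so they are a description. TFPI, the inhibitor of the tissue factor complex, was low in the RARRES2-high cells, where the other 8 genes had more CPM than in the FOLR1-high cells. FOLR1-high cells had few or no counts of SERPINE2, PLAUR, THBS1, THBD and PLAT. The plot of levels by line gives all 27 values.

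**Figure D1:**
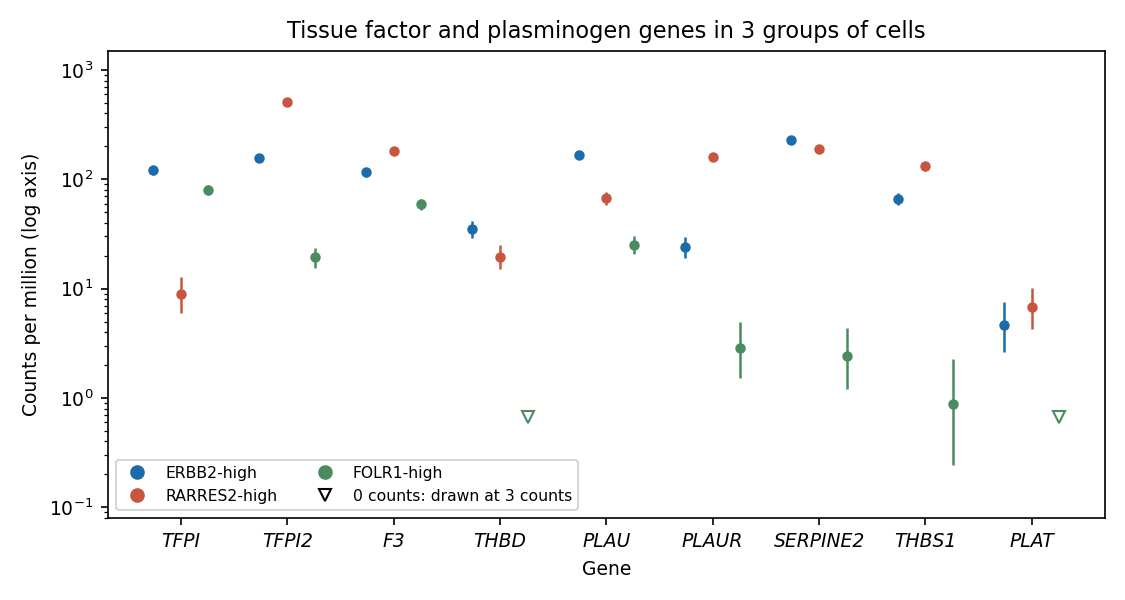
CPM (log axis) of each of the 9 genes in the ERBB2-high, RARRES2-high and FOLR1-high cells; bars are exact Poisson 95% intervals of the summed counts of 1 library, and open triangles mark genes with 0 counts, drawn at the level of 3 counts. TFPI is lowest in the RARRES2-high cells (8.88 CPM), while SERPINE2, PLAUR and THBS1 are under 3 CPM in the FOLR1-high cells.

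F3, which starts the pathway, was found in all 3 lines. It had 400 counts in the ERBB2-high cells (116 CPM, interval 105 to 128), 608 in the RARRES2-high cells (180 CPM, 166 to 195) and 267 in the FOLR1-high cells (59.1 CPM, 52.3 to 66.7). The RARRES2-high level was thus the highest and the FOLR1-high level the lowest, and no 2 of these intervals overlapped. The CPM ratio of RARRES2-high to FOLR1-high was 3.04 (interval 2.63 to 3.53), that of RARRES2-high to ERBB2-high 1.55 (1.36 to 1.76) and that of ERBB2-high to FOLR1-high 1.96 (1.68 to 2.30). To compare shares of cells at equal depth, every cell was thinned to 2000 counts, which left out 42 ERBB2-high, 30 RARRES2-high and 32 FOLR1-high cells. Then F3 was counted in 23.5% of RARRES2-high, 15.02% of ERBB2-high and 11.1% of FOLR1-high cells, against 49.3%, 31.3% and 22.2% before thinning.

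TFPI differed from F3 in its place in the RARRES2-high cells, where it was lowest. It had 417 counts in the ERBB2-high cells (121 CPM, 110 to 133), 364 in the FOLR1-high cells (80.6 CPM, 72.5 to 89.3) and 30 in the RARRES2-high cells (8.88 CPM, 5.99 to 12.7). The ERBB2-high level was 13.6 times the RARRES2-high level (9.41 to 20.5), and the FOLR1-high level 9.08 times it (6.25 to 13.7). ERBB2-high and FOLR1-high cells differed by less, with a ratio of 1.503 (1.30 to 1.73). TFPI was seen in 24 of 473 RARRES2-high cells (5.07%), against 39.0% of ERBB2-high and 27.5% of FOLR1-high cells. The part of free RNA in the droplets in this low share was not tested, and the share is not read as expression. Thinned to 2000 counts, the shares were 1.81%, 23.1% and 13.9%.

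TFPI2 had its highest level where TFPI had its lowest. It had 1724 counts in the RARRES2-high cells (510 CPM, 487 to 535), 540 in the ERBB2-high cells (157 CPM, 144 to 171) and 87 in the FOLR1-high cells (19.3 CPM, 15.4 to 23.8). The RARRES2-high level was 3.25 times the ERBB2-high (2.95 to 3.59) and 26.5 times the FOLR1-high level (21.3 to 33.2). It was counted in 84.8% of RARRES2-high cells, 46.8% of ERBB2-high cells and 6.80% of FOLR1-high cells. At 2000 counts per cell the shares were 58.7%, 25.9% and 2.73%. In the FOLR1-high line 14 of the 87 counts came from a single cell, the highest value in any cell of that line. Thrombomodulin, by contrast, was not seen in that line. THBD had 120 counts in the ERBB2-high cells (34.9 CPM, 28.9 to 41.7), 66 in the RARRES2-high cells (19.5 CPM, 15.1 to 24.9) and 0 in 765 FOLR1-high cells, which allows a share of up to 0.392% of cells with a count when 3 counts are taken as the floor and 0.481% by the exact interval. With the 0 set to 3 counts over the line, THBD was at least 52.5-fold higher in the ERBB2-high and at least 29.4-fold higher in the RARRES2-high cells than in the FOLR1-high cells, and the exact intervals of these ratios, which take the 0 as counted, start at 42.0 and 23.3. Thinned to 2000 counts per cell, with fewer counts in all, these bounds were 16.5 and 11.6, and at a share limit of 60% for sorting cells the ratios were 82.8 and 47.3. The THBD intervals of the ERBB2-high and RARRES2-high cells did not overlap, and their ratio was 1.78 (1.31 to 2.45).

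The protease and its receptor were highest in different lines. PLAU had 574 counts in the ERBB2-high cells (167 CPM, 153 to 181), 226 in the RARRES2-high cells (66.9 CPM, 58.5 to 76.2) and 113 in the FOLR1-high cells (25.0 CPM, 20.6 to 30.1). PLAUR had 537 counts in the RARRES2-high cells (159 CPM, 146 to 173), 83 in the ERBB2-high cells (24.1 CPM, 19.2 to 29.9) and 13 in the FOLR1-high cells (2.88 CPM, 1.53 to 4.92). The ERBB2-high cells thus had 2.49 times the PLAU (2.13 to 2.92) and the RARRES2-high cells 6.59 times the PLAUR (5.22 to 8.41) of the other. PLAUR was counted in 49.9% of RARRES2-high, 10.6% of ERBB2-high and 1.05% of FOLR1-high cells, and 6 of its 13 counts in the FOLR1-high line lay in 1 cell. At 2000 counts per cell these shares were 25.3%, 4.62% and 0.409%, and those of PLAU were 11.96%, 22.6% and 4.23%. PLAT, the other plasminogen activator, was scarce throughout. It had 16 counts in the ERBB2-high cells (4.65 CPM, 2.66 to 7.55), 23 in the RARRES2-high cells (6.81 CPM, 4.32 to 10.2) and 0 in the FOLR1-high cells. The first 2 intervals overlapped, and PLAT never had the 50 counts over a pair of lines that the counts of differing genes below require.

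SERPINE2 and THBS1 separated the FOLR1-high cells from both others. SERPINE2, whose product inhibits thrombin and plasminogen activators, had 793 counts in the ERBB2-high cells (230 CPM, 215 to 247), 634 in the RARRES2-high cells (188 CPM, 173 to 203) and 11 in the FOLR1-high cells (2.44 CPM, 1.22 to 4.36). The ERBB2-high level was 94.6 times the FOLR1-high level (52.6 to 190) and 1.23 times the RARRES2-high level (1.10 to 1.36). The RARRES2-high level was 77.0 times the FOLR1-high level (42.8 to 155). With a share limit of 60% in place of 75% for sorting cells, the ratios to the FOLR1-high cells were 39.3 and 31.4, and with cells thinned to 2000 counts they were 169 and 142. THBS1 had 444 counts in the RARRES2-high cells (131 CPM, 119 to 144), 228 in the ERBB2-high cells (66.2 CPM, 57.9 to 75.4) and 4 in the FOLR1-high cells (0.886 CPM, 0.241 to 2.27). The RARRES2-high level was 1.98 times the ERBB2-high level (1.69 to 2.34) and 148 times the FOLR1-high level (57.5 to 547), and the ERBB2-high level was 74.8 times the FOLR1-high level (28.8 to 277). These ratios to the FOLR1-high cells rest on 4 counts: they were 62.8 and 30.7 at a share limit of 60%, 295 and 148 without the barcodes called doublets by Scrublet, and 95.1 and 43.5 after thinning. At a share limit of 90% the ratio of ERBB2-high to FOLR1-high was 132. SERPINE2 and THBS1 were counted in 1.18% and 0.523% of FOLR1-high cells, and the part of free RNA in these low shares was not tested. In the ERBB2-high cells SERPINE2 and THBS1 were counted in 60.5% and 14.7%, and in the RARRES2-high cells in 53.3% and 41.0%. Thinned to 2000 counts, SERPINE2 was in 36.3%, 28.0% and 0.273% of ERBB2-high, RARRES2-high and FOLR1-high cells, and THBS1 in 7.59%, 21.7% and 0.273%.

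**Figure D2:**
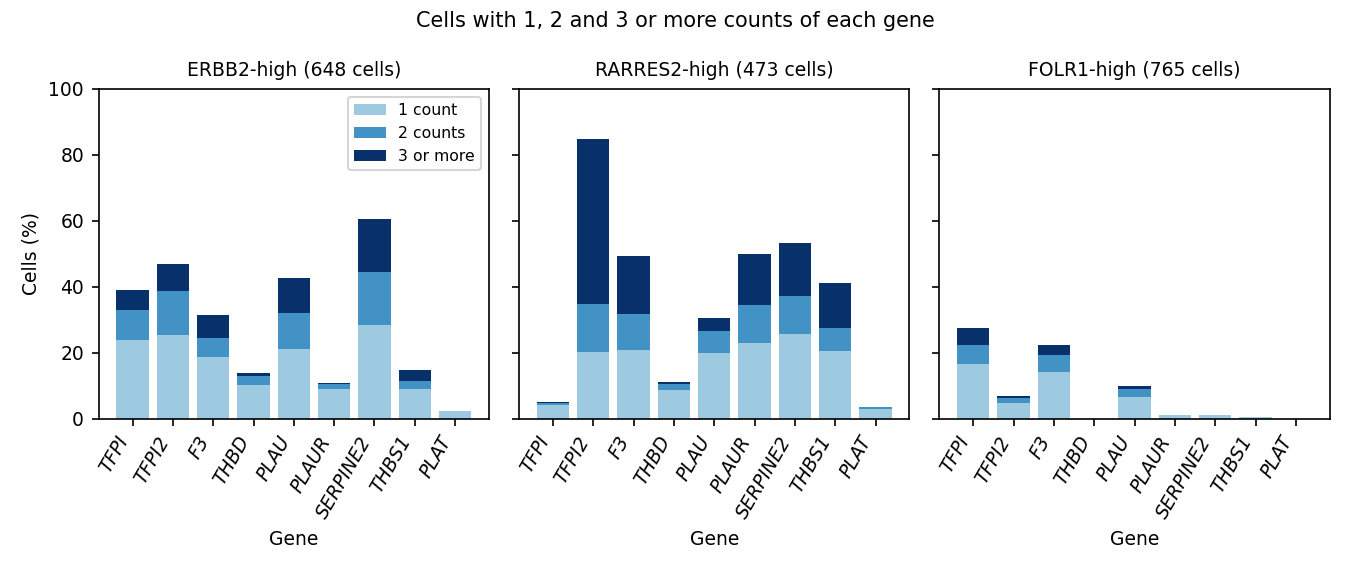
Share of cells (%) with 1, 2 and 3 or more counts of each gene in the 648 ERBB2-high, 473 RARRES2-high and 765 FOLR1-high cells. TFPI2 is seen in 84.8% of RARRES2-high cells, and THBD and PLAT in no FOLR1-high cell.

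Within a line, the counts of each gene were compared with those of entries of like total for how far they sat in few cells, and THBS1 in the ERBB2-high line sat in few. There 14 cells held at least 50% of the 228 THBS1 counts, up to 19 in 1 cell, while 553 of 648 cells had none. The top 5% of cells (32 cells) held 70.2% of the THBS1 counts. Among 1925 gene entries with total counts within 1.5-fold of those of THBS1 in that line, the median was 32.2% and 6 were more concentrated. In the RARRES2-high line the top 5% of cells (23 cells) held 32.9% of the THBS1 counts, beside a median of 23.9% over 1021 such entries. F3 was also more concentrated than most entries, with 41.5% of its ERBB2-high counts in the top 5% of cells against a median of 25.4%. PLAU in the ERBB2-high line stood at 30.8% against 22.4%, with 36 of 889 entries above it. SERPINE2 in the RARRES2-high line stood at 33.0% against 21.4%, with 17 of 738 above it. TFPI2 in the FOLR1-high line stood at 83.9% against 53.4%, with 11 of 2548 above it. TFPI in the ERBB2-high line stood nearer its peers, at 29.3% against 25.1%. Every gene with at least 20 counts in a line lay above the median of its peers there. For low counts this says little. PLAT in the RARRES2-high line had counts in 17 cells, fewer than the 23 top cells, so its 100% was fixed. TFPI there had counts in 24 cells, so its 96.7% was nearly fixed.

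Against the background of all genes, the count of differing genes can be read only as a description, since these contrasts were used to choose the genes. A gene is counted as differing where the CPM ratio is at least 2 and the 2 groups hold at least 50 counts together. Of 9137 entries with enough counts, 21.1% were higher in the ERBB2-high than in the RARRES2-high cells and 13% the reverse. Among the 8 genes with enough counts, TFPI and PLAU were higher in the ERBB2-high cells and TFPI2 and PLAUR in the RARRES2-high cells. Against the FOLR1-high cells, 26% of 9237 entries were higher in the ERBB2-high cells and 9.36% were lower, and of the 8 genes 6 were higher and 0 lower. F3 and TFPI were the others. Between RARRES2-high and FOLR1-high cells, 21.9% of 9100 entries were higher in the former and 12.9% in the latter, and of the 8 genes 7 were higher in the former and TFPI in the latter. The median log2 ratio of the 8 genes was -0.17 for ERBB2-high against RARRES2-high, 3.05 for ERBB2-high against FOLR1-high and 4.80 for RARRES2-high against FOLR1-high, beside 0.21, 0.45 and 0.20 over all entries with enough counts. The contrasts share lines, so their values are not independent of each other. The cells just inside the share limit of the FOLR1-high line (75 to 85%, 38 cells) had 88.7 CPM of TFPI and no SERPINE2 count, and the 15 cells just outside (65 to 75%) had 28.6 CPM of TFPI and 7 SERPINE2 counts.

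**Figure D3:**
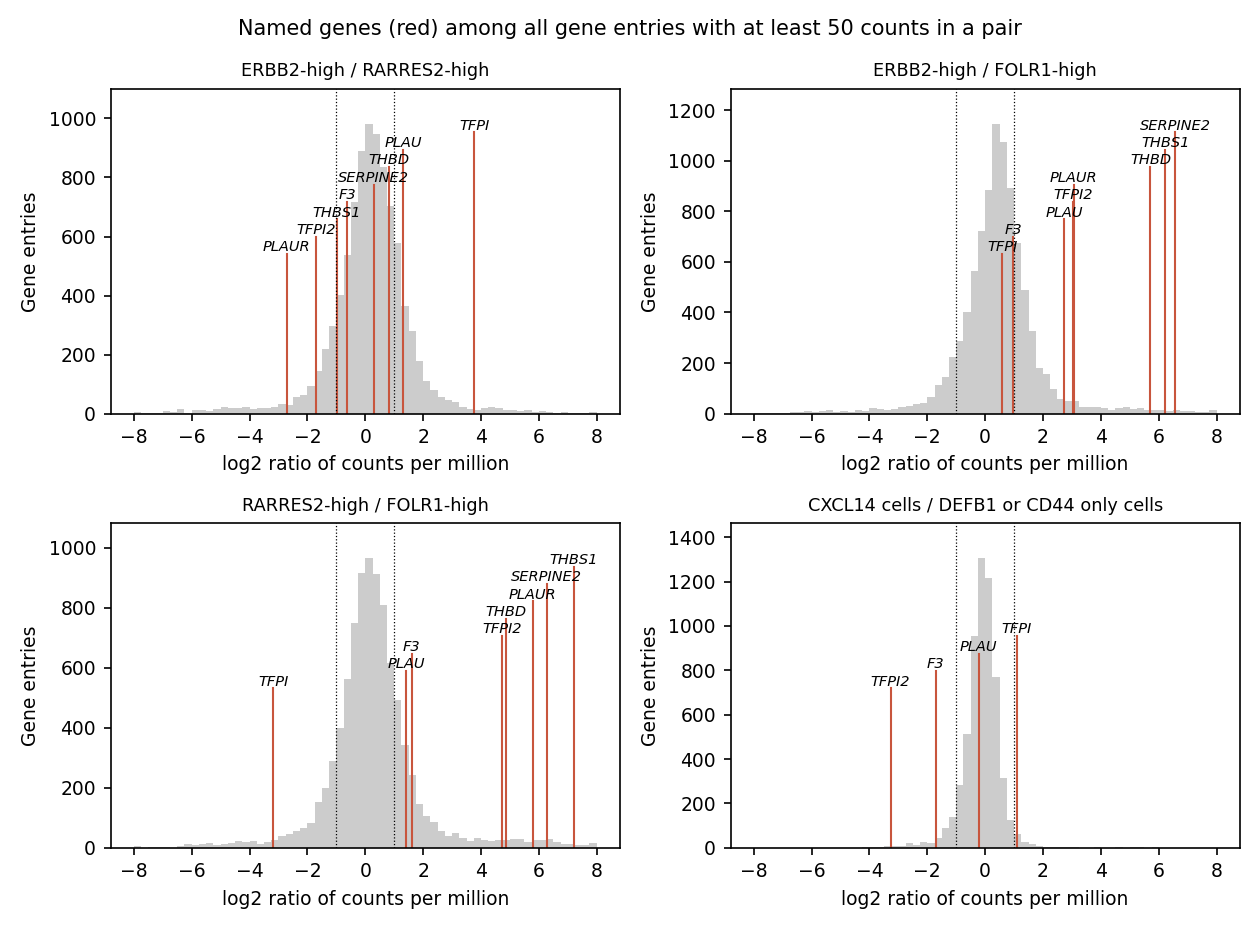
Histograms of the log2 CPM ratio of all gene entries with at least 50 counts in a pair of groups, with red lines for the named genes and dotted lines at a 2-fold ratio; values beyond 8 are drawn at 8. SERPINE2, THBS1 and THBD lie far to the right in both contrasts with FOLR1-high cells, and TFPI lies to the left of the dotted line between RARRES2-high and FOLR1-high cells.

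Genes that bear on clotting through known roles, 45 in all and listed with the data known, differed in both directions. Between ERBB2-high and RARRES2-high cells 22 had enough counts, of which 6 were higher in the former and 3 in the latter, beside 21.1% and 13% of all entries. Against FOLR1-high cells, 10 of 23 were higher and 5 lower in the ERBB2-high cells, and 8 of 22 higher and 4 lower in the RARRES2-high cells. Over all entries these shares were 26% and 9.36%, and 21.9% and 12.9%. No count was seen in these lines for F5, F7, F10, F13A1, PLG, SERPINC1, SERPIND1, CPB2, THBS2 or COMP, which include clotting factors that the liver makes. SERPINA5, the protein C inhibitor, had 1 count in the ERBB2-high, 1 in the RARRES2-high and 72 in the FOLR1-high cells, and the counts that follow are in the same order. PROS1, the cofactor of activated protein C and of TFPI, had 105, 4 and 27 counts, highest in the ERBB2-high cells at 30.5 CPM. SPINT1, a Kunitz inhibitor of membrane serine proteases, had 12, 105 and 81 counts. LRP1, an endocytic receptor that clears protease complexes, had 14, 41 and 96 counts. MRC2, a collagen receptor that associates with the uPA receptor, had 206, 93 and 47 counts. F2RL1, a receptor cleaved by the tissue factor complex, had 57, 46 and 15 counts. ANXA2, which binds plasminogen and tPA at the cell surface, had 8854 counts in the RARRES2-high and 2775 in the FOLR1-high cells, a ratio of 4.26 (4.09 to 4.45). ANXA2 has processed copies in the genome that could share its reads. VKORC1 and SPINT2 were measured only in entries that join them with a neighbouring gene.

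Markers of other cell types were checked beside these levels, since TFPI, THBD and PLAT are also endothelial genes. The 6 endothelial markers (PECAM1, CDH5, KDR, TEK, VWF and CLDN5) summed to 2.03 CPM in the ERBB2-high, 32.3 in the RARRES2-high and 5.76 in the FOLR1-high cells. In each line 3 of the 6 had 0 counts, TEK had 0 in all, and CDH5 gave 103 of the 109 counts in the RARRES2-high cells. The 4 fibroblast markers (COL1A1, DCN, LUM and PDGFRB) summed to 97.9, 23.7 and 3.99 CPM, DCN had 0 counts in every line and COL1A1 gave 329 of the 337 counts in the ERBB2-high cells. Of the 4 immune markers, CD68 was measured only in an entry joined with its neighbours, CD14 and LST1 had 5 and 1 counts in the RARRES2-high cells, and PTPRC had 1 count each in the RARRES2-high and FOLR1-high cells. The endothelial sum was thus highest in the RARRES2-high cells, where TFPI2, F3, PLAUR and THBS1 were highest and TFPI lowest. The fibroblast sum was highest in the ERBB2-high cells, where TFPI, SERPINE2, PLAU and THBD were highest, and the part of either in those levels was not tested.

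The FOLR1-high cells hold a further contrast. In 261 cells at least 1 CXCL14 count was found (median 4972 counts), 299 cells had no CXCL14 and at least 1 DEFB1 or CD44 count (median 6040), and 205 had none of these (median 4801). CXCL14 encodes a chemokine, DEFB1 a defensin and CD44 a hyaluronan receptor. Of 6041 entries with enough counts, 2.6% were at least 2-fold higher in the CXCL14 cells and 6.62% in the DEFB1 or CD44 only cells. Of the 9 genes 4 had enough counts, of which TFPI was higher in the CXCL14 cells and TFPI2 and F3 in the DEFB1 or CD44 only cells. The median log2 ratio of the 4 was -0.96, beside -0.08 over all entries.

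TFPI had 181 counts in the CXCL14 cells (126 CPM, 108 to 146) and 116 in the DEFB1 or CD44 only cells (59.0 CPM, 48.8 to 70.8), a ratio of 2.14 (1.68 to 2.72). F3 had 33 counts in the former (23.0 CPM, 15.8 to 32.3) and 147 in the latter (74.8 CPM, 63.2 to 87.9), so that the latter were 3.26 times higher (2.22 to 4.90). TFPI and its target were thus highest in different cells of 1 line. The cells with neither mark stood beside the DEFB1 or CD44 only cells, at 60.2 CPM for TFPI (46.7 to 76.5) and 78.2 CPM for F3 (62.7 to 96.5). TFPI2 had 5 counts in the CXCL14 cells (3.48 CPM) and 66 in the DEFB1 or CD44 only cells (33.6 CPM), 9.65 times higher in the latter (3.93 to 30.7), with 14 of the 66 in 1 cell. With a share limit of 60% for sorting cells the ratio of the former to the latter was 0.338, against 0.104, and with 90% it was 0.061. After thinning, TFPI2 had 0 counts in the CXCL14 cells and 17 in the DEFB1 or CD44 only cells. The 0.208 given by setting that 0 to 3 counts is therefore not a measured ratio. PLAU showed overlapping intervals, with 37 and 59 counts (25.8 and 30.0 CPM) and a ratio of 0.858 (0.553 to 1.32). SERPINE2, PLAUR and THBS1 had 10 counts or fewer in either group, and PLAT and THBD had 0 in both. At 2000 counts per cell, TFPI was in 19.3% of 249 CXCL14 cells and 8.503% of 294 DEFB1 or CD44 only cells, and F3 in 4.42% and 13.6%, so both directions were also seen at equal depth.

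**Figure D4:**
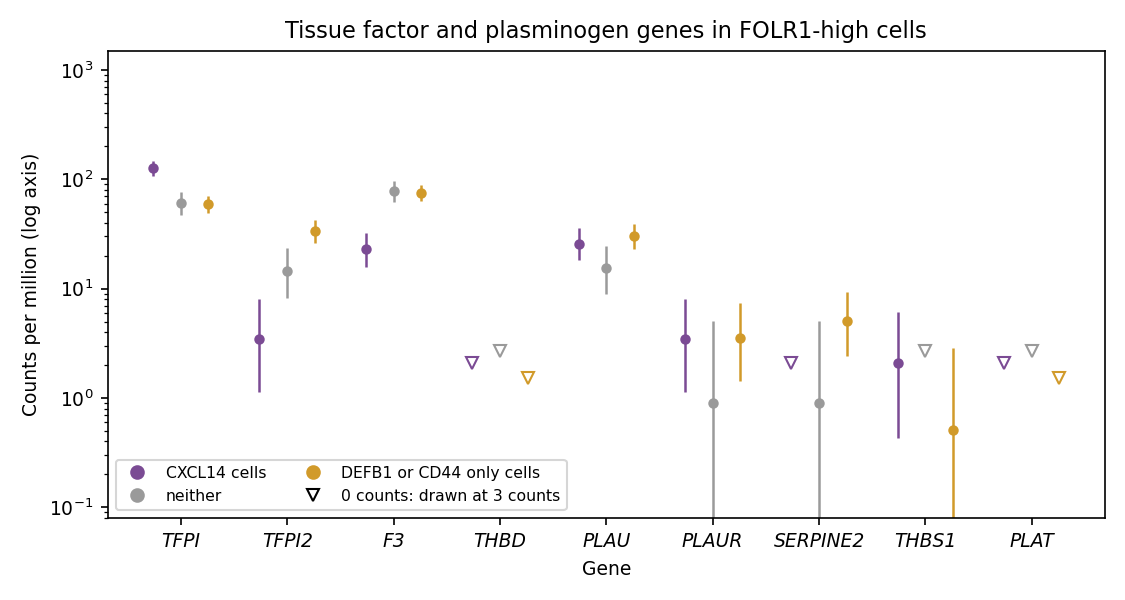
CPM (log axis) of the 9 genes in the CXCL14 cells, the cells with neither mark and the DEFB1 or CD44 only cells of the FOLR1-high line, with exact Poisson 95% intervals; open triangles mark 0 counts, drawn at the level of 3 counts, and intervals that reach the lower edge go on below it. TFPI is higher and F3 and TFPI2 are lower in the CXCL14 cells.

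The TFPI and F3 levels went with the presence of CXCL14, and a trend with its amount was not tested. FOLR1-high cells with 0, 1 to 2, 3 to 9 and 10 or more CXCL14 counts numbered 504, 68, 83 and 110. TFPI stood at 59.5, 123, 147 and 115 CPM in these cells, and the intervals of the last 3 overlapped. F3 stood at 76.0, 24.6, 32.9 and 16.3 CPM, and here too the last 3 intervals overlapped, on only 9, 13 and 11 counts. Median depth in the 4 classes was 5513.5, 5144, 3890 and 5505 counts.

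Of the 45 listed pathway genes 17 had enough counts in these cells, of which 2 were higher in the CXCL14 cells and 5 in the DEFB1 or CD44 only cells, beside 2.6% and 6.62% of all entries. SERPINA5 (50 against 2 counts) and CD47 (91 against 47), the latter encoding a receptor for thrombospondin 1, were at least 2-fold higher in the CXCL14 cells. PROCR, encoding the endothelial protein C receptor, was higher in the DEFB1 or CD44 only cells, with 12 counts against 164 and a ratio of 9.99 (5.57 to 19.7). So were SPINT1 (4 against 61), the joint entry of SPINT2 (369 against 1341), ANXA2 (569 against 1597) and S100A10 (501 against 2219), whose product pairs with annexin A2.

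The transcripts of the 9 genes were compared as shares of each gene's estimated counts. A gene is counted where 1 transcript differs by at least 20 percentage points and both groups hold at least 50 counts. Among all entries of a single gene with several transcripts, 2.45% of 4245 passed between ERBB2-high and RARRES2-high cells, 2.21% of 4477 between ERBB2-high and FOLR1-high cells, 3.25% of 4120 between RARRES2-high and FOLR1-high cells and 0.597% of 2347 between the CXCL14 cells and the DEFB1 or CD44 only cells. None of the 4, 3 and 2 genes with enough counts passed between lines. The 1 gene with enough counts in the last contrast, TFPI, did, and it was chosen with that difference known.

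The TFPI difference lay at the start of the gene. ENST00000392365 begins with an untranslated exon of 26 bases at chr2:187513616-187513641, a place where the beta transcript ENST00000409676 has its second exon, and ENST00000233156 with an exon of 293 bases at chr2:187554200-187554492. Both encode the alpha form. ENST00000392365 held 34.9% of 181 counts in the CXCL14 cells (27.9 to 42.2) and 59.5% of 116 counts in the DEFB1 or CD44 only cells (49.97 to 68.5), a difference of 24.6 points. Only 4 of the 2347 entries differed by more, and the median was 2.73 points. ENST00000233156 held 52.1% and 29.1%. Only 51.4% and 49.1% of the TFPI counts in these cells were estimated as whole, the rest being split between transcripts. Over the counts estimated as whole (within 0.01 of a whole number, here and in the other transcript results), ENST00000392365 held 41 of 93 (44.1%, 33.8 to 54.8) and 40 of 57 (70.2%, 56.6 to 81.6). With the mean of the shares of single cells in place of summed counts, the difference was -19.9 points and just under the limit. In the ERBB2-high cells it held 63.3% of 417 counts (58.5 to 67.9) and in all FOLR1-high cells 45.5% of 364 (40.4 to 50.9), a difference of 17.7 points that 135 of 4477 entries exceeded. Over the counts estimated as whole these shares were 79.0% of 238 and 53.3% of 195, past the limit of 20 points.

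The ends of TFPI differed less. The beta end held 5.75% of the counts in the ERBB2-high cells (3.72 to 8.44) and 12.03% in the FOLR1-high cells (8.92 to 15.9). Over the counts estimated as whole the shares were 1.68% (4 of 238) and 7.69% (15 of 195). In the CXCL14 cells and the DEFB1 or CD44 only cells the beta share was 13.02% and 11.4%, with overlapping intervals. The alpha end thus held most TFPI counts in each of these groups, at 87.0% or more.

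F3 without exon 5, the sequence shown above with its direct junction, was a minor form in each line. It held 8.56% of 400 counts in the ERBB2-high cells (5.96 to 11.7), 5.85% of 608 in the RARRES2-high cells (4.18 to 8.10) and 10.6% of 267 in the FOLR1-high cells (7.08 to 14.8). Over the counts estimated as whole these shares were 4.90%, 2.82% and 2.30%. The order of the lines thus depended on how split reads are counted, and the intervals of the lines overlapped both ways.

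PLAUR with the anchored end and all exons, ENST00000340093, held 60.4% of 83 counts in the ERBB2-high cells (48.9 to 70.8) and 76.2% of 537 in the RARRES2-high cells (72.3 to 79.7). The form with the alternative end, ENST00000339082, held 22.1% (13.4 to 32.1) and 11.5% (8.97 to 14.6). ENST00000221264 lacks the coding exon 5 of 135 bases at chr19:43655439-43655573 and held 13.9% and 7.89%. Over the counts estimated as whole, 59 and 311, ENST00000340093 held 64.4% and 75.9%, ENST00000339082 28.8% and 17.7%, and ENST00000221264 6.78% and 4.18%. The difference of 15.8 points in ENST00000340093 was exceeded by 210 of 4245 entries.

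SERPINE2 could be compared between 2 lines, and its largest difference, 6.995 points, was exceeded by 968 of 4245 entries. ENST00000409304, without the 3 extra bases, held 62.5% of 793 counts in the ERBB2-high cells (59.1 to 65.9) and 69.5% of 634 in the RARRES2-high cells (65.8 to 73.1). ENST00000258405, with them, held 19.4% and 16.6%. ENST00000409840, which starts further inside the gene at position 224031478 of chromosome 2, held 17.9% and 13.6%. Only 24.6% and 21.1% of SERPINE2 counts were estimated as whole, so these shares rest largely on split reads. Over those whole counts ENST00000409304 held 57.4% of 195 and 73.1% of 134. The 2 PLAU transcripts, which differ in where coding starts, kept to a narrow range, with ENST00000372764 at 80.5%, 76.0% and 77.5% in the ERBB2-high, RARRES2-high and FOLR1-high cells and ENST00000446342 holding the rest. Over the counts estimated as whole ENST00000372764 held 77.0%, 82.0% and 84.3%. TFPI2, THBS1 and THBD have 1 listed transcript each, and PLAT had too few counts.

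**Figure D5:**
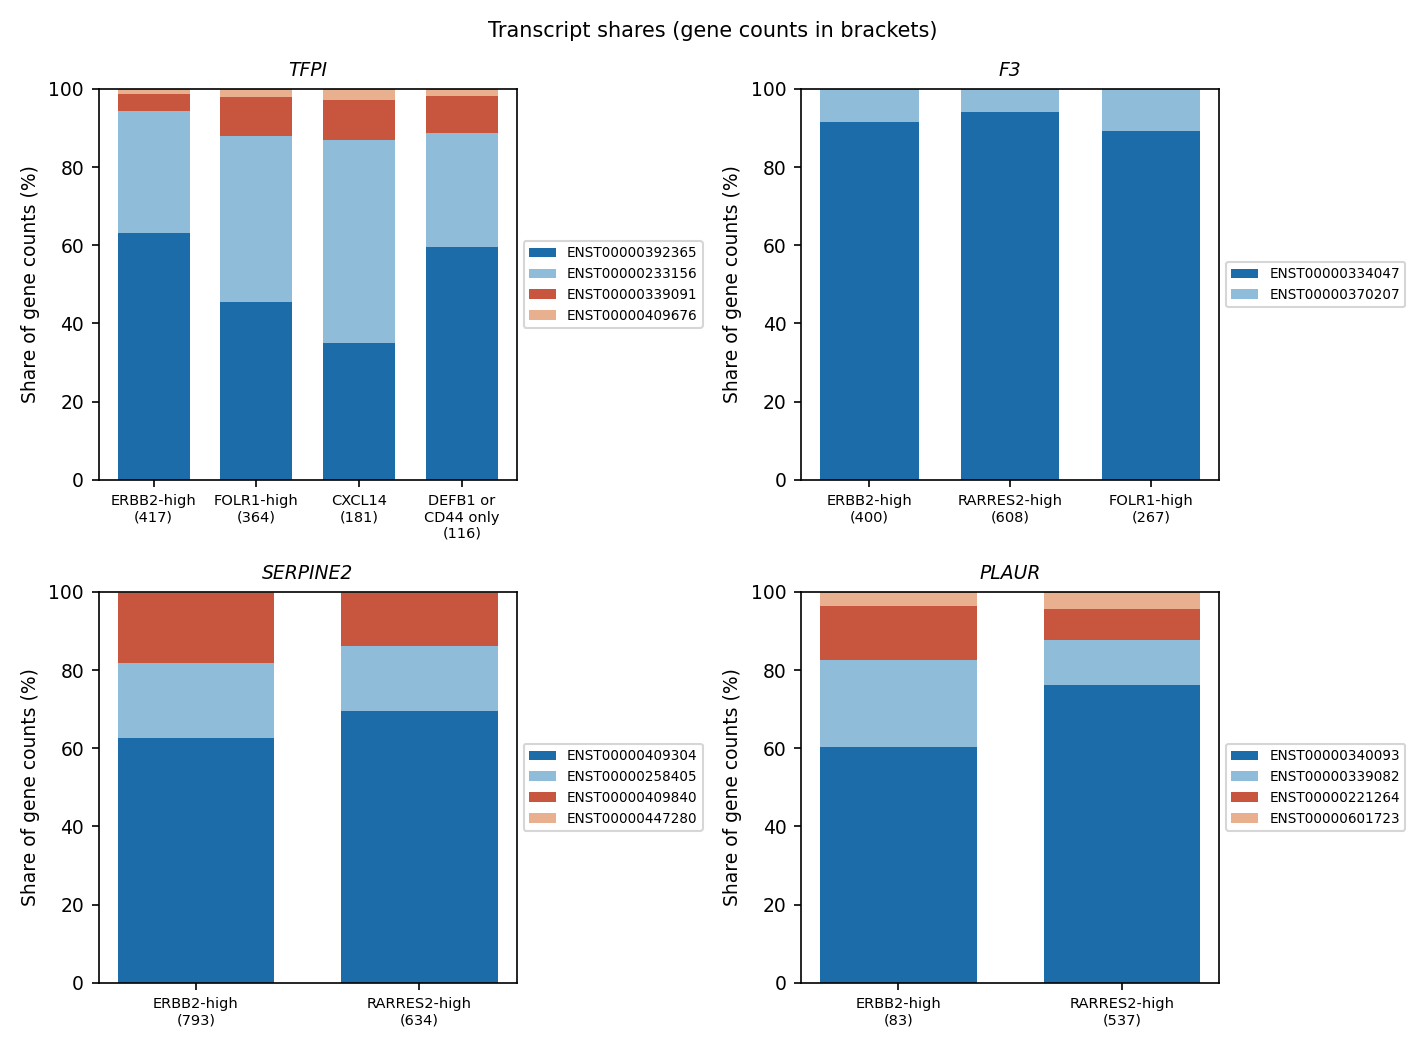
Stacked bars of the share of each gene's estimated counts (%) in its transcripts, for TFPI, F3, SERPINE2 and PLAUR, in the groups named under the bars with the gene counts in brackets. For TFPI the dark blue share, ENST00000392365, is 34.9% in the CXCL14 cells and 59.5% in the DEFB1 or CD44 only cells.

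The genes whose levels over 4 groups of cells (ERBB2-high, RARRES2-high, CXCL14 cells, and DEFB1 or CD44 only cells) lay nearest to each of the 9 were found among 5540 genes by the Euclidean distance of centred log2(CPM + 10). The nearest to TFPI were EPHX1 (distance 0.39) and TFDP2 (0.48), beside a median distance of 2.47 over all candidates. Those nearest to TFPI2 were PLP2 (0.36) and CAV1 (0.79), and to F3 LIMA1 (0.21) and PLEC (0.21). SERPINE2 was followed most closely by CXCL1 (0.31) and PSMB8 (0.45), and PLAU by NCOA1 (0.15) and SYNJ2 (0.21). PLAUR was nearest to CD109 (0.26) and SPOCK1 (0.40), and THBS1 to UBE2L6 (0.20) and PSMB9 (0.26). THBD and PLAT had too few counts to be placed.

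Among the 8 genes with enough counts, F3, TFPI2, PLAUR and THBS1 had their highest CPM in the RARRES2-high cells, and the promoters of the first 3 are shown because each holds the letters TGANTCA, the core of an AP-1 site. The windows are the 250 bases before the RefSeq start (GRCh38.p14), at chr1:94541760-94542009, chr7:93890754-93891003 and chr19:43670170-43670419, all on the minus strand. Capitals mark matches on either strand to this and to the core letters of SP1, TATA box and TEAD sites, spelled out after the sequences:
F3: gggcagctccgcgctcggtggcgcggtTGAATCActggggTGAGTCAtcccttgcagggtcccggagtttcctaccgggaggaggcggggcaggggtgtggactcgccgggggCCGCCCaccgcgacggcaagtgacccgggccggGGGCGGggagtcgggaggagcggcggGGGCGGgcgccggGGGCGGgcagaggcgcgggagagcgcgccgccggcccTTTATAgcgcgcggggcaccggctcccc
TFPI2: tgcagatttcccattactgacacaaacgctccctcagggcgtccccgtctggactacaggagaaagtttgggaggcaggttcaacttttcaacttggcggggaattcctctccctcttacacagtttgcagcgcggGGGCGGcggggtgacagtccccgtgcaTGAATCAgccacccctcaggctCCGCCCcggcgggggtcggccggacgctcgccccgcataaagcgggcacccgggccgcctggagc
PLAUR: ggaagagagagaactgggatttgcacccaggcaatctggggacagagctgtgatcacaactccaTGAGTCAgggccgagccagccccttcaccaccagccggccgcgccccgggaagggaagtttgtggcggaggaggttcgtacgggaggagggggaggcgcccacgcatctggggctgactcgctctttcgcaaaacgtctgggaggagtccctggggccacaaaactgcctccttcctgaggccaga

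TGANTCA occurred 2 times before F3 and 1 time each before TFPI2 and PLAUR. THBD had no window in the tables used, and PLAT was not searched. The letters did not occur in the windows of TFPI, THBS1, either searched start of PLAU or either searched start of SERPINE2. Over all 35116 windows of this length 6.57% held it. The SP1 letters GGGCGG occurred 4 times before F3, 4 before THBS1 and 2 before TFPI2, 3 times before 1 of the PLAU starts, and 2 times and 1 time before the SERPINE2 starts. They did not occur before PLAUR, TFPI or the other PLAU start, and 42.6% of all windows held them. The TATA box letters TATAAA occurred 1 time, before F3, and 10.7% of windows held them. The TEAD letters GGAATG, held by 11.9% of windows, occurred 1 time before THBS1 and in none of the other 6 genes with a window. No match overlapped another in the windows printed. The TFPI window lies before position 187554435, while ENST00000392365, with 63.3% of the ERBB2-high TFPI counts, starts at 187513641. The SERPINE2 windows lie before 224031478 and 224038640. ENST00000409304, with 62.5% of the ERBB2-high SERPINE2 counts, and ENST00000258405 start at 224039288 and 224039319. The bases before these transcript starts of TFPI and SERPINE2 were thus not searched as windows of their own. A match describes letters and not a bound site, and these motifs were chosen with the levels known.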

How the data were processed

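Cells of a pool of 3 ovarian cancer lines were sequenced in 1 Illumina and 1 PromethION library. Per the submitters' processing notes, Cell Ranger 6.0.1 and the GRCh38 genome were used, and the series' design text names Isosceles as the package the data were made to benchmark. The authors deposited estimated counts (expected counts) per transcript and barcode, not normalized, in which a read can be divided among transcripts, and 39.8% of the matrix entries were whole within 1e-06. The sources used here do not say whether molecular identifiers were collapsed, and the intervals cover counting error only. Transcript estimates were summed per gene entry (722 of 57110 entries join several genes). These sums were whole and were rounded.

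Barcodes with at least 1000 counts were assigned to lines as described above. In all 2129 of 2462 barcodes reached that depth, and the lines hold 3442383, 3377992 and 4514999 counts (ERBB2-high, RARRES2-high, FOLR1-high). CPM are per 1000000 summed counts of a group. Intervals (95%) are exact Poisson for levels, exact Clopper-Pearson for shares and exact conditional binomial for ratios. A group at 0 was set to 3 counts in ratios. The genes, lists and tests were chosen with earlier results of these data known. Named genes are the 9 genes, the 2 nearest in pattern to each, pathway genes at least 4-fold apart in a pair of groups with 50 counts (at most 10), and transcripts with at least 10% of a gene's counts in a line; CD47, S100A10 and the joint entry of SPINT2 were added after their values were seen. 1 gene that this rule takes is not reported here. Thinning was without replacement (seed 1). Scrublet (scanpy 1.11.5, expected rate 0.02) marked 49 barcodes, 14 of them in lines, which were kept in the values reported. Cells just inside the share limit (75 to under 80%, 85 cells) and just outside (70 to under 75%, 39 cells) had median depths of 6065 and 7997 counts. The counting steps were tested on simulated data. Analyses used Python 3.11.15, numpy 2.4.6, scipy 1.17.1 and pandas 2.3.3. The alternatives tried changed the depth, share, fold, count and point limits, the scaling, the doublet calls and the handling of split reads. The Illumina counts were not used here.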

Additional observations from a re-analysis of the deposited data

Results flagged for a closer look

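The 576 barcodes that fell in no line, through low depth, mixed counts of the 10 sorting genes or, for 35 of the deeper ones, no count of them, entered no comparison, and each of the 9 genes had more than 3 counts there. TFPI had 48 counts, TFPI2 699, F3 257, SERPINE2 283 and PLAU 112. PLAUR had 149 counts, PLAT 12, THBS1 160 and THBD 38. These barcodes hold 13.2% of all counts in the library, beside 23.5% of the PLAT counts, 22.9% of TFPI2, 19.1% of THBS1, 19.1% of PLAUR, 17.0% of THBD, 16.8% of F3, 16.4% of SERPINE2, 10.9% of PLAU and 5.59% of TFPI.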

How the results depend on the processing

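With 1 library, no spread between samples is known, and depth limits PLAT, THBD in single cells and all transcript shares under 50 counts. No paired analysis was made, because every value comes from the PromethION library alone and the Illumina counts of the same barcodes were not used. There were 21 alternative settings (depth and share limits, doublet calls, scaling, thinning, fold, count and share limits, reference gene of the transcripts). Under them, 126 of 138 counts, levels and shares stayed within 1.5 times or the counting interval. The levels among these were varied only by keeping transcripts that the reference gives to the gene. That kept all 25 transcripts, so the levels could not move. Of 232 ratios of single genes, 220 stayed within the counting interval or moved by under 0.05 on the log2 scale. A reversal could be called only for ratios at least 2-fold in the main setting and for the difference in ENST00000392365. None of these reversed, and for the other values a reversal was not defined. The TFPI ratio between CXCL14 cells and DEFB1 or CD44 only cells ranged from 2.10 to 2.29, and the difference in ENST00000392365 from -26.1 to -19.9 points. Single ratios that moved by over 1.5 times, all of them ratios of SERPINE2, THBS1 or THBD to the FOLR1-high cells or of TFPI2 between the states, are given with the results. The values that moved follow from the limit itself where a limit was changed. Shares of all entries were not counted under the alternative settings, so the counts that follow have no background beside them. With a fold limit of 1.5, 7 of the 8 genes with enough counts differed between ERBB2-high and RARRES2-high cells. Of the 22 pathway genes with enough counts, 14 did. With a limit of 3, 2 of these 22 pathway genes differed there. So did 9 of 23 between ERBB2-high and FOLR1-high cells, 6 of 22 between RARRES2-high and FOLR1-high cells and 4 of 17 between the states. With no minimum count, 5 of the genes differed between the states. Among them SERPINE2 rests on 0 counts in the CXCL14 cells against 10, and THBS1 on 3 against 1. With a limit of 10 points 1 gene passed for transcripts between ERBB2-high cells and each of the other lines, and with 30 points 0 between the states. With only whole estimates 1 gene passed between ERBB2-high and FOLR1-high cells, and with the mean of the shares of single cells 0 passed between the states; the cause was not tested.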

Other observations

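In the ERBB2-high line THBS1 marked a small set of cells, a split chosen after its values were seen. The 37 cells with 2 or more THBS1 counts held 74.6% of the THBS1 counts of the line and were compared with the 553 cells with none (median depth 6569 and 4761 counts). F3 stood at 338 CPM in the former (85 counts in 21 cells) and 101 CPM in the latter, a ratio of 3.36 (2.61 to 4.30). TFPI was the reverse at 39.8 and 130 CPM (10 and 368 counts), 3.27 times higher in the cells with no THBS1 (1.76 to 6.87). THBD, with 3 and 111 counts, was also higher in the cells with no THBS1, by 3.28 times (1.09 to 16.2). PLAU stood at 258 and 157 CPM, a ratio of 1.64 (1.25 to 2.13). SERPINE2 (247 and 232 CPM), TFPI2 (167 and 152 CPM), PLAUR (11 and 65 counts) and PLAT (4 and 11 counts) had ratios whose intervals include 1. IGFBP5, KRT81, GFRA1, TENM2 and CCBE1 were among the genes of the highest ratio outside THBS1. KRT81, a hair-type keratin, was counted in 17 of the 37 cells (584 CPM) and in 7 of the 553 (21.9 CPM). ERBB2, a gene of the line's rule, was lower in the 37 cells, at 175 against 452 CPM. KRT81 had 0.296 CPM in the RARRES2-high and 0.221 CPM in the FOLR1-high cells as a whole, and RARRES2 stood at 63.6 and 41.3 CPM in the 37 and the 553 cells. Of 6806 entries with at least 50 counts, 2.73% were at least 2-fold higher in the 37 cells and 9.43% at least 2-fold lower.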
